A study of Rattus norvegicus with 23 samples.

Results

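The proliferation genes described here were Cdk1 (ENSRNOG00000000632), Ccnb1 (ENSRNOG00000058539), Top2a (ENSRNOG00000053047), Mki67 (ENSRNOG00000028137), Pcna (ENSRNOG00000021264) and Ccnd1 (ENSRNOG00000020918). They were chosen by these 6 Ensembl identifiers, with no threshold on a measured value, out of 32494 genes in each count table. All 6 passed the filter on low counts, as did 14035 genes in all. The tables hold identifiers only, so the symbols are those of the selection rule and were not checked against the files.

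The material was 3D aggregates of brain cells taken from rat embryos (Sprague Dawley) of embryonic day 15 and kept for 14 days in culture under agitation. Aggregates received sepiapterin, a pterin that cells convert to the enzyme cofactor tetrahydrobiopterin, at 120 ng/ml, and controls received phosphate-buffered saline (PBS). RNA was taken after 6, 12 and 24 hours (T6, T12 and T24) from sepiapterin and control aggregates, and at 0 hours (T0) from control aggregates only, with 3 libraries in each of the 7 groups. A further 2 T12 control libraries were repeats, which makes 23 libraries in all. The labels place the T6 and T12 libraries in a first preparation batch and the T24 libraries and the T12 repeats in a second one. For T0 the labels name no batch.

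Dividing cells pass through a growth phase, DNA replication, a second gap and mitosis, and the 6 genes act at different points of that course. Ccnd1 encodes cyclin D1, which binds CDK4 and CDK6 and helps cells pass from growth into replication. Pcna encodes the sliding clamp that holds DNA polymerases on the template. Top2a encodes topoisomerase II alpha, which untangles DNA and is made mainly late in replication and before mitosis. Cdk1 encodes the kinase that drives mitosis, and Ccnb1 encodes cyclin B1, its partner. Mki67 encodes Ki-67, a protein that coats mitotic chromosomes and is widely used to count cycling cells. In embryonic brain tissue, transcripts limited to dividing cells come mostly from neural progenitors and glial precursors, since neurons do not divide. Whether all 6 genes were limited to dividing cells in these cultured aggregates was not tested. The deposited identifiers are not paired with symbols of cell type markers, so the cell types of the aggregates were not checked here. In bulk RNA of this kind, fewer dividing cells and less RNA per dividing cell cannot be told apart.

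The promoters are printed because 4 of these genes were higher in the same comparison of times and some covaried between libraries, as described below. The RefSeq promoter table (build GRCr8) held a window for 5 of the 6 genes, from 250 bases before to 50 bases after the annotated start, and no entry for Ccnd1. Capitals mark 3 kinds of motif, searched on both strands. They are the cell cycle homology region (CHR) TTTGAA, which appears as TTCAAA on the other strand, the CCAAT box, which appears as ATTGG, and an E2F-type site spelled TTTCCCGC, TTTGGCGC, TTTCGCGC or TTTGCCGC. In cell cycle genes of mouse and human, CHR and CCAAT elements are known to take part in keeping promoters silent in resting cells and active before mitosis. The printed stretches read 5′ to 3′ on the strand of the gene and end at the last base before the start, except that of Cdk1, which stops earlier, where another annotated start of the gene lies. That of Cdk1 lay at chr20:19265043-19265251 (plus strand), that of Ccnb1 at chr2:33655226-33655475, that of Top2a at chr10:84473094-84473343 and that of Pcna at chr3:139955821-139956070 (minus strand for all except Cdk1).
Cdk1: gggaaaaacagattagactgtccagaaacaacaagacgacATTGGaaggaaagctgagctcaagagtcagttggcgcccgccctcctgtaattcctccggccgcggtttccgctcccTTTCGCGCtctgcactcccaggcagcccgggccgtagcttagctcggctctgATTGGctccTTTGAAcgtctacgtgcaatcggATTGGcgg
Ccnb1: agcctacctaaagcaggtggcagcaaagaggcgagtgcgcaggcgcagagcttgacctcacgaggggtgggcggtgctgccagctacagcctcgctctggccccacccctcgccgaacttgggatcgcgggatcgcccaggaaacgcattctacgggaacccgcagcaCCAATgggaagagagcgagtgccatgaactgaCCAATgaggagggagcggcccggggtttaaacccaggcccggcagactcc
Top2a: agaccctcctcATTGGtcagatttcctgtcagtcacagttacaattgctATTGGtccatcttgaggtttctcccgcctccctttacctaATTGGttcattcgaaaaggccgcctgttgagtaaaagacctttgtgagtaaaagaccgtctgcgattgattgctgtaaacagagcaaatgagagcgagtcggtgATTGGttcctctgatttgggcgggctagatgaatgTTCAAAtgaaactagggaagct
Pcna: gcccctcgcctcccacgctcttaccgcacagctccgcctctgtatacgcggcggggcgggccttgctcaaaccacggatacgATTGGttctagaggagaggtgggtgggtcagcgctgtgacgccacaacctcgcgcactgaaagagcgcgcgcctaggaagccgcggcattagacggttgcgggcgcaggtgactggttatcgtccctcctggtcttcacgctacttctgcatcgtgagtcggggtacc
The Cdk1 window held CHR matches that began at 72 and 16 bases before the start, and an E2F-type match at 133, with CCAAT matches at 210, 81 and 49. Of these, the CHR match at 16 falls after the printed stretch. Top2a held a CHR match at 22 bases before its start, on the reverse strand, and CCAAT matches at 239, 201, 161 and 57. Mki67, whose sequence is not printed because its window lies inside the annotated span of the gene, had CHR matches at 117 and 99 bases before its start and CCAAT matches at 189, 167, 142 and 94, of which the last shares its first base with the nearer CHR match. Ccnb1 held CCAAT matches at 82 and 50 bases, and Pcna a CCAAT match at 168. Among 33469 promoter windows of the same table, 18.3% held a CHR match, 37.5% a CCAAT match and 2.14% one of the E2F-type matches. A match describes the letters in the window and is not a measured binding site.

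Reads counted in genes ran from 16991417 to 26588314 per library. Raw counts of the members ran from 302 for Ccnb1 to 3098 for Pcna. Counting error alone was therefore 4.31 to 5.75% of a Ccnb1 value and 4.39 to 5.42% of a Cdk1 value. For Top2a it was 1.82 to 2.30%. Levels are given as counts per 1000000 reads in genes (CPM), scaled by TMM, which corrects for differences in library composition, and a CPM is compared only between libraries for the same gene. The libraries titled as samples 10 and 11 carry the column headers of the repeats, and the reverse. Groups follow the titles, and results by file header are given where they differ in outcome. T0 control replicate 1 was the library farthest from its group. Its root mean square log2 difference over all tested genes was 0.371 and 0.400 from the other T0 libraries, against 0.260 between those and at most 0.310 within any other group.

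**Figure D1:**
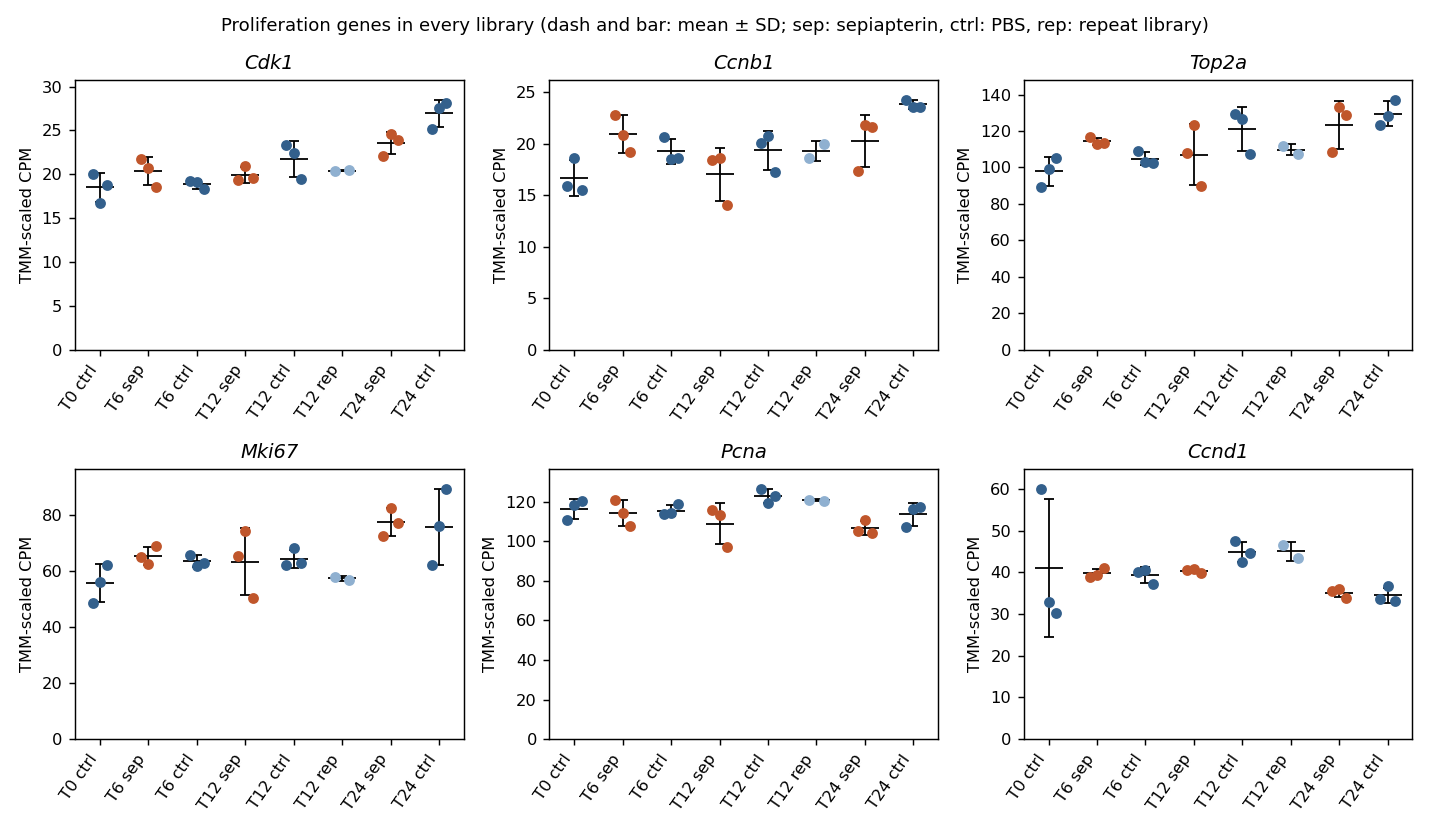
TMM-scaled CPM of each gene in all 23 libraries (1 dot per library, n = 3 per group and 2 repeats), with the mean and SD of each group. Control values of Cdk1 are highest at T24, between 25.2 and 28.1 CPM, and 1 T0 control library stands far above all others in Ccnd1, at 60.0 CPM.

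The comparison of sepiapterin with PBS at each time asks whether the cofactor precursor was followed by a change in the expression of genes of dividing cells. None of the 6 genes passed the threshold (adjusted p under 0.05 in edgeR's quasi-likelihood test, Benjamini-Hochberg adjustment over all tested genes) at T6, T12 or T24, and none did by DESeq2. An unadjusted p under 0.05 was given to 0 members at T6, 1 at T12 and 2 at T24. Among the 14035 genes tested, 2231 had such a p at T12 and 2870 at T24. Cdk1 and Ccnb1, the kinase and cyclin of mitosis, came nearest at T24, with lower values in all 3 sepiapterin libraries than in any control library of that time. Pcna, the replication clamp, was placed likewise at T12. How many of all tested genes had groups without overlap was not counted, so such separation, here and below, is given as a description. Over all genes tested, edgeR called 0% at T6 (301 genes with an unadjusted p under 0.05, and 0 called by DESeq2), 0.0214% (3 genes) at T12 and 4.17% (585 genes) at T24, so a count of 0 among 6 members is near the background at each time. The median log2 fold change of the 6 members was 0.08 at T6, -0.16 at T12 and -0.08 at T24, against medians of -0.00, 0.00 and 0.01 over all tested genes. Taken without regard to sign, the median over all tested genes was 0.05 at T6, 0.09 at T12 and 0.10 at T24.

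Cdk1 at T24 had 22.1, 24.6 and 23.9 CPM in the sepiapterin libraries and 25.2, 27.5 and 28.1 CPM in the controls. The groups did not overlap. The log2 fold change was -0.19 ± 0.08 (SE), with a 95% interval from -0.36 to -0.03, an unadjusted p of 0.022 and an adjusted p of 0.16. At T6 the same gene had 21.7, 20.7 and 18.6 CPM with sepiapterin against 19.2, 19.1 and 18.3 CPM in controls. Those groups overlapped, and the log2 fold change of 0.11 ± 0.08 had an adjusted p of 1.00. At T12 the values were 19.3, 20.99 and 19.5 CPM with sepiapterin against 23.4, 22.4 and 19.4 CPM in controls, of which 1 control lay among the sepiapterin libraries (log2 fold change -0.12 ± 0.08, adjusted p = 0.48). Grouped by file header, the T12 difference of Cdk1 was -0.01 ± 0.07.

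Ccnb1, which encodes the cyclin that activates Cdk1, had 17.3, 21.8 and 21.6 CPM in T24 sepiapterin libraries and 24.3, 23.6 and 23.6 CPM in T24 controls. All 3 controls lay above the highest sepiapterin library, and sepiapterin replicate 1 was the lowest library of that time. The log2 fold change was -0.23 ± 0.11, with an interval from -0.45 to -0.01, an unadjusted p of 0.038 and an adjusted p of 0.22. Without sepiapterin replicate 1 the difference was -0.13 ± 0.11 (adjusted p = 0.67). At T6 Ccnb1 had 22.8, 20.9 and 19.2 CPM with sepiapterin and 20.6, 18.5 and 18.6 CPM in controls, and at T12 it had 18.4, 18.6 and 14.1 CPM with sepiapterin and 20.1, 20.8 and 17.2 CPM in controls. The groups overlapped at both times, with log2 fold changes of 0.13 ± 0.10 (adjusted p = 1.00) and -0.18 ± 0.11 (adjusted p = 0.41).

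The difference between times was tested itself. From T6 to T24 the sepiapterin effect on Cdk1 moved by -0.30 ± 0.11 on the log2 scale (unadjusted p = 0.012, adjusted p = 0.30) and that on Ccnb1 by -0.36 ± 0.15 (unadjusted p = 0.023, adjusted p = 0.34). None of the members passed the threshold, 2 had an unadjusted p under 0.05, and edgeR called 0% of genes in that contrast, with 1662 genes at an unadjusted p under 0.05. DESeq2 called 53 genes there and no member. Between T12 and T24 edgeR called 0.235% of genes (33) and no member, of which 0 had an unadjusted p under 0.05. Between T6 and T12 it called 0% of genes (1049 with an unadjusted p under 0.05) and no member, with 2 members at an unadjusted p under 0.05. These were Ccnb1 (-0.31 ± 0.15, unadjusted p = 0.047) and Top2a (-0.31 ± 0.14, unadjusted p = 0.037), both with an adjusted p of 0.67. By DESeq2 no member was called in either.

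Pcna had 116, 114 and 97.0 CPM in T12 sepiapterin libraries and 127, 120 and 123 CPM in T12 controls. The groups did not overlap, and sepiapterin replicate 3 was the lowest library of the series for this gene. The log2 fold change was -0.17 ± 0.06, with a 95% interval from -0.29 to -0.05, an unadjusted p of 0.0074 and an adjusted p of 0.16. Without sepiapterin replicate 3 it was -0.10 ± 0.06 (adjusted p = 0.62). At T6 Pcna had 121, 114 and 108 CPM with sepiapterin and 114, 114 and 119 CPM in controls (log2 fold change -0.01 ± 0.06). At T24 it had 105, 111 and 104 CPM with sepiapterin and 107, 117 and 118 CPM in controls (-0.09 ± 0.06, adjusted p = 0.41). The groups overlapped at T6 and T24. Averaged over the 3 times, Pcna had the smallest p of the members, with a log2 fold change of -0.09 ± 0.03, an unadjusted p of 0.012 and an adjusted p of 0.15. In that average edgeR called 1.03% of genes (144) and no member, and DESeq2 called 450 genes and no member.

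Top2a, the topoisomerase, had 117, 113 and 114 CPM in T6 sepiapterin libraries and 109, 103 and 103 CPM in T6 controls. These groups did not overlap, and the log2 fold change was 0.13 ± 0.10 (adjusted p = 1.00). At T12 it had 108, 123 and 89.8 CPM with sepiapterin and 129, 127 and 107 CPM in controls. At T24 it had 108, 133 and 129 CPM with sepiapterin and 123, 128 and 137 CPM in controls. The groups overlapped at both times, with log2 fold changes of -0.18 ± 0.10 (adjusted p = 0.38) at T12 and -0.07 ± 0.10 (adjusted p = 0.74) at T24. Grouped by file header, the T12 difference was -0.02 ± 0.09.

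Mki67, the proliferation marker, had 65.1, 62.5 and 68.8 CPM in T6 sepiapterin libraries against 65.9, 61.9 and 62.8 CPM in T6 controls. At T12 it had 65.3, 74.4 and 50.4 CPM with sepiapterin against 62.2, 68.1 and 63.0 CPM in controls. At T24 it had 72.7, 82.7 and 77.3 CPM with sepiapterin against 62.1, 75.9 and 89.2 CPM in controls. The groups overlapped at every time, the largest log2 fold change was 0.05 ± 0.13, and the 95% intervals at T6, T12 and T24 ran from -0.23 to 0.32, from -0.30 to 0.25 and from -0.24 to 0.31. Mki67 spread more within the T12 sepiapterin and T24 control groups than it differed between treatments.

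Ccnd1, the growth phase cyclin, had 39.0, 39.5 and 41.0 CPM in T6 sepiapterin libraries and 40.2, 40.7 and 37.3 CPM in T6 controls. At T12 it had 40.5, 40.9 and 39.9 CPM with sepiapterin and 47.5, 42.5 and 44.8 CPM in controls. At T24 it had 35.5, 36.1 and 33.9 CPM with sepiapterin and 33.5, 36.7 and 33.2 CPM in controls. The groups overlapped at T6 and T24 and did not overlap at T12. The log2 fold changes were 0.02 ± 0.17 at T6, -0.15 ± 0.17 at T12 (adjusted p = 0.71) and 0.03 ± 0.18 at T24. These errors include the spread of the T0 controls, in which Ccnd1 was at 60.0, 32.9 and 30.2 CPM. Without T0 control replicate 1 the T12 difference was -0.15 ± 0.05 (adjusted p = 0.12).

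**Figure D2:**
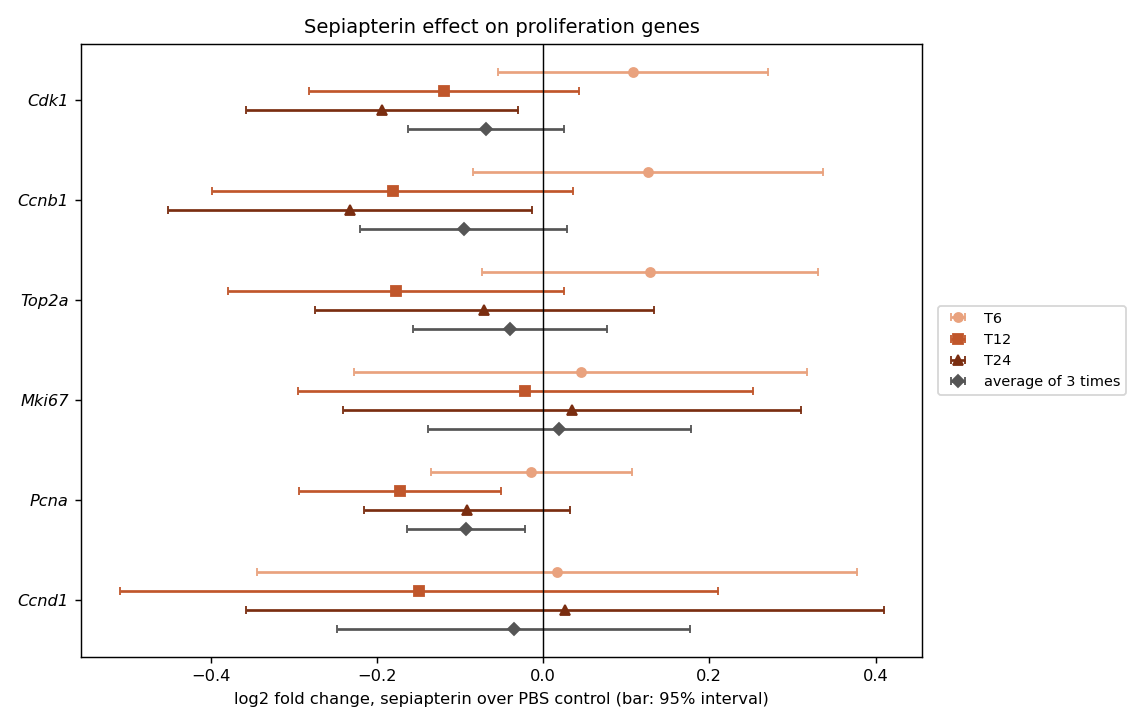
Log2 fold change of sepiapterin over PBS control for each gene at T6, T12 and T24 and averaged over the 3 times, from 3 libraries per group, with 95% intervals. The intervals of Cdk1 and Ccnb1 at T24, Pcna at T12 and Pcna in the average lie below 0 before adjustment for the number of genes, and none of the adjusted p-values is under 0.05.

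Time in culture was compared next. In control aggregates Cdk1, Ccnb1, Top2a and Mki67 rose by T24 relative to T0, while Pcna and Ccnd1 did not pass the threshold. That comparison, and those of T24 with T6, were chosen after the levels had been seen. Between T24 and T0, edgeR called 25.7% of all genes (3611), and 12.9% (1817) as higher at T24, against 4 of the 6 members, all of them higher. Between T6 and T0, and between T12 and T6, no member was called in control aggregates.

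Cdk1 averaged 26.9 ± 1.56 CPM in T24 controls and 18.5 ± 1.65 CPM in T0 controls (SD, n = 3 each), and every T24 library lay above every T0 library, which were at 20.0, 16.7 and 18.7 CPM. The log2 fold change was 0.54 ± 0.08, a 1.45-fold higher level (adjusted p = 4.07e-05). Ccnb1 averaged 23.8 ± 0.397 CPM in T24 controls against 16.7 ± 1.71 CPM in T0 controls, where the libraries had 15.9, 18.6 and 15.5 CPM. The groups did not overlap, with a log2 fold change of 0.52 ± 0.11 (1.43-fold, adjusted p = 0.0010). Top2a averaged 130 ± 6.99 CPM in T24 controls and 97.8 ± 7.99 CPM in T0 controls, where it had 89.2, 99.2 and 105 CPM. It too had no overlap between the groups (log2 fold change 0.41 ± 0.10, 1.33-fold, adjusted p = 0.0050). Mki67 averaged 75.8 ± 13.5 CPM in T24 controls and 55.7 ± 6.83 CPM in T0 controls, whose libraries had 48.6, 56.1 and 62.3 CPM. The lowest T24 library, at 62.1 CPM, lay just below the highest T0 library, and the log2 fold change was 0.44 ± 0.13 (adjusted p = 0.020). The call of Mki67 was lost without T24 control replicate 3 (adjusted p = 0.11) and without T0 control replicate 1 (adjusted p = 0.075). It held in 7 of the 12 alternatives run, and the other 3 calls held in all 12. None of the 12 has a batch term, because T0 has no stated batch, so time and batch cannot be told apart in the comparison of T24 with T0.

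Pcna averaged 114 ± 5.83 CPM in T24 controls and 117 ± 5.11 CPM in T0 controls, in which it had 111, 119 and 120 CPM. The difference was -0.03 on the log2 scale, with a 95% interval from -0.16 to 0.09. Ccnd1 averaged 34.5 ± 1.91 CPM in T24 controls and 41.0 ± 16.5 CPM in T0 controls, a spread that comes from T0 replicate 1. Its log2 fold change was -0.25 ± 0.18 (adjusted p = 0.32), and 0.14 (adjusted p = 0.11) without that library.

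The steps up to T12 were as follows. Between control T6 and T0, where T0 has no stated batch, edgeR called 21.6% of genes and none of the members, with 0 members at an unadjusted p under 0.05 and none called by DESeq2. Ccnb1 had the largest shift of the members in that step, 0.22 ± 0.11 (adjusted p = 0.15). Without T0 control replicate 1, Ccnd1 was higher at T6 by 0.34 ± 0.06 (adjusted p = 0.00026). Between control T12 and T6, edgeR called 4.67% of genes and no member, and 2998 genes had an unadjusted p under 0.05. Cdk1 and Top2a were the 2 members with such a p. Both had a log2 fold change of 0.20, with adjusted p-values of 0.15 and 0.23, and DESeq2 called neither. Grouped by file header, Cdk1 was at 0.08 ± 0.07 (adjusted p = 0.64) and Top2a at 0.05 ± 0.09 (adjusted p = 0.85). Ccnd1 averaged 44.9 ± 2.49 CPM in T12 controls and 39.4 ± 1.82 CPM in T6 controls, without overlap. Its log2 fold change was 0.18 ± 0.17 (adjusted p = 0.58), and 0.18 ± 0.05 (adjusted p = 0.035) when T0 control replicate 1 was left out.

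In sepiapterin aggregates Ccnb1 had the largest shift of the members between T12 and T6. Its mean was 17.0 ± 2.56 CPM at T12 and 20.9 ± 1.81 CPM at T6, with no overlap and a log2 fold change of -0.31 ± 0.10 (unadjusted p = 0.0068, adjusted p = 0.087). Without T12 sepiapterin replicate 3 it was -0.19 ± 0.10 (adjusted p = 0.43). The other 5 members differed by at most 0.10 in size in that step. Of all genes, edgeR called 4.37% there and no member, and DESeq2 called 816 genes and no member.

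The T24 libraries were prepared with the second batch, so time and batch are linked only through the T12 controls, which were prepared in both. Against T6, control T24 libraries had 3 called members, all higher, beside 17.8% of genes called. Cdk1 was higher by 0.50 ± 0.08 (1.42-fold, adjusted p = 0.00017), Ccnb1 by 0.30 ± 0.10 (adjusted p = 0.044) and Top2a by 0.30 ± 0.10 (adjusted p = 0.038). With library batch as a term and the repeats taken by title, Cdk1 was higher by 0.59 ± 0.11 (adjusted p = 0.00077), while Ccnb1 at 0.30 ± 0.15 (adjusted p = 0.16) and Top2a at 0.44 ± 0.15 (adjusted p = 0.050) were not called. With the repeats taken by file header, the values were 0.32 ± 0.10 for Cdk1 (adjusted p = 0.092), 0.17 ± 0.14 for Ccnb1 and 0.07 ± 0.13 for Top2a, and no member was called. The call of Cdk1 held in 14 of 15 alternatives, that of Ccnb1 in 5 and that of Top2a in 6. Without a batch term, Mki67 was at 0.25 ± 0.13 (adjusted p = 0.20) and Pcna at -0.03 ± 0.06 (0.78). Ccnd1 was at -0.20 ± 0.17 (0.47), an error that includes the spread of the T0 controls. It was lower in all 15 alternatives and called in 2. These were without T0 control replicate 1 (-0.20 ± 0.06, adjusted p = 0.011) and with only the compared groups (adjusted p = 0.016).

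**Figure D3:**
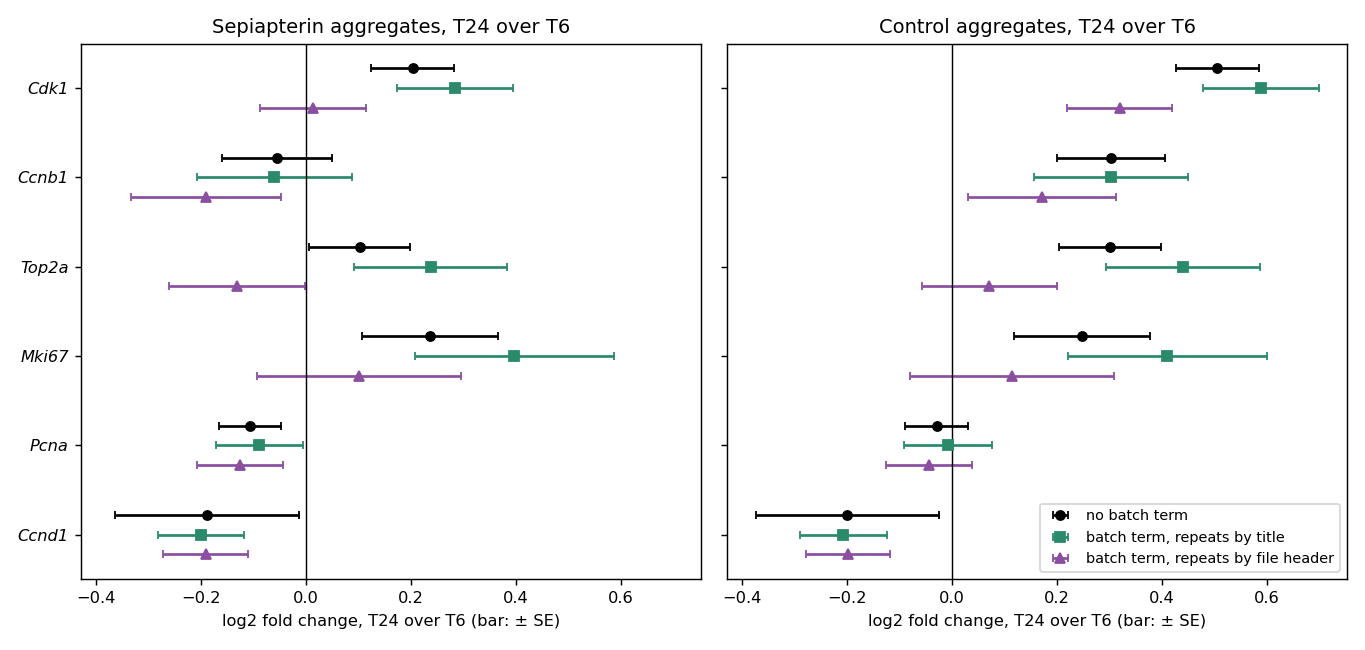
Log2 fold change of T24 over T6 in sepiapterin and in control aggregates, without a batch term and with library batch as a term, the T12 repeats taken by title or by file header (bars: SE). In control aggregates Cdk1 is highest in all 3 fits, between 0.32 and 0.59, and Top2a moves most with the naming of the repeats, between 0.07 and 0.44.

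In sepiapterin aggregates no member was called between T24 and T6, while edgeR called 23.2% of all genes (DESeq2 called 3170 genes and no member). Cdk1 averaged 23.5 ± 1.27 CPM at T24 and 20.3 ± 1.59 CPM at T6, without overlap, and its log2 fold change was 0.20 ± 0.08 (unadjusted p = 0.017, adjusted p = 0.067). Ccnb1 differed by -0.06 ± 0.10 (adjusted p = 0.75). Top2a was at 0.10 ± 0.10, Mki67 at 0.24 ± 0.13 and Pcna at -0.11 ± 0.06. Ccnd1 was at -0.19 ± 0.17 (adjusted p = 0.47). It was lower in all 15 alternatives and called in 2 of them (lowest adjusted p = 0.011). With library batch as a term, Cdk1 was at 0.28 ± 0.11 by title (adjusted p = 0.080) and 0.01 ± 0.10 by file header (adjusted p = 0.96), and Mki67 at 0.40 ± 0.19 by title (adjusted p = 0.18) and 0.10 ± 0.19 by file header (adjusted p = 0.81). Top2a was at 0.24 ± 0.15 by title and -0.13 ± 0.13 by file header, and Ccnb1 at -0.06 ± 0.15 and -0.19 ± 0.14, and no member was called in either fit. The direct test of whether the T6 to T24 shift differed between sepiapterin and control aggregates is the difference between times given above, which called none of the members.

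Within the second batch, T24 controls were set against the 2 repeated T12 controls in a fit of the 8 libraries of that batch. Cdk1 had 25.2, 27.5 and 28.1 CPM at T24 against 20.3 and 20.5 CPM in the T12 repeats. It rose 1.32-fold (log2 fold change 0.40 ± 0.08, adjusted p = 0.010). Ccnd1 had 33.5, 36.7 and 33.2 CPM at T24 against 46.6 and 43.5 CPM in the repeats. It fell to a level 0.764 times that of T12 (log2 fold change -0.39 ± 0.07, adjusted p = 0.0059). For both genes the groups were well apart, and the fit called 5.54% of 13653 genes tested. Ccnb1 at 0.30 ± 0.09 (adjusted p = 0.066), Top2a at 0.24 ± 0.07 (0.073), Mki67 at 0.40 ± 0.13 (0.10) and Pcna at -0.09 ± 0.06 (0.36) were not called. When the file headers decided which T12 controls were the repeats, Ccnd1 kept its call at -0.38 ± 0.07 (adjusted p = 0.021), while Cdk1 was at 0.24 ± 0.08 (adjusted p = 0.22). Ccnd1 was called in 10 of 11 alternatives and Cdk1 in 8.

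The paired libraries of samples 10 and 11 give the difference between preparations of the same sample. The library titled as the first-batch T12 control exceeded its repeat by a mean log2 difference of 0.22 for Top2a, 0.18 for Mki67, 0.16 for Cdk1 and 0.08 for Ccnb1. Pcna differed by 0.03 and Ccnd1 by -0.00. By title, the comparison of T24 controls with the repeats lies within the second batch, so these differences between batches are not part of it. Which library of each pair belongs to which batch rests on the titles, and the headers give the opposite sign.

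The order of the group means differed between the genes. For Cdk1 it was T24 control, T24 sepiapterin, T12 control, T6 sepiapterin, T12 sepiapterin, T6 control and T0 control from high to low, and the T24 controls were separated from the next group without overlap. For Ccnb1 the T24 controls were also highest and separated from the next group, T6 sepiapterin, and T0 controls were lowest. Top2a and Mki67 were highest in the T24 groups and lowest at T0, and no neighbours in either order were free of overlap. Pcna was highest in T12 controls and lowest in T24 sepiapterin libraries, again with overlap between all neighbours. Ccnd1 was by mean highest in T12 controls and lowest in the T24 groups, which lay below all T6 libraries. The T0 controls came next after T12 controls, with a mean raised by T0 control replicate 1 at 60.0 CPM. Their other libraries lay below every T24 library.

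Covariation between libraries was measured on log2 CPM minus the mean of the group, over the 21 libraries of the 7 groups, so that differences between group means do not enter. Of the 15 pairs of members, only Top2a and Mki67 passed the threshold, with Pearson's r = 0.79 (permutation within groups, two-sided, p = 0.00070, adjusted p = 0.010) and Spearman's rho = 0.79 (permutation p = 0.00087, adjusted p = 0.013). Without the 2 libraries farthest from the median of Top2a, r was 0.73. The pair passed in all 23 alternatives, with r between 0.68 and 0.85. T12 sepiapterin replicate 3 was the lowest library of its group for Ccnb1, Top2a, Mki67 and Pcna, and replicate 2 of the same group was the highest for Top2a and Mki67.

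Ccnb1 and Top2a had r = 0.76 and rho = 0.63 (permutation p = 0.015 and 0.023, adjusted p = 0.11 and 0.14), and r fell to 0.59 without the 2 farthest libraries. This pair passed the threshold in 1 of the 23 alternatives (adjusted permutation p = 0.018). Mki67 and Pcna had r = 0.68 (rho = 0.54), Top2a and Pcna r = 0.63 (rho = 0.57), and both had an adjusted permutation p of 0.14 for r. Cdk1 followed the others more loosely, with r between 0.23 with Mki67 and 0.49 with Top2a. Without T0 control replicate 1 the pair of Cdk1 and Top2a passed the threshold, at r = 0.70 (adjusted permutation p = 0.0097). Ccnd1 stood apart, with r between -0.35 and 0.36, and its relations rest on T0 control replicate 1. Without that library its r with Cdk1 was -0.04 and with Pcna 0.10.

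Likeness was also ranked among all tested genes, as a description over the same 21 libraries. Top2a was 18th of 14034 other genes by r with Ccnb1, and Ccnb1 was 121st by r with Top2a. Mki67 was 72nd by r with Top2a, and Top2a was 205th by r with Mki67. The closest member to Pcna was Mki67, at rank 412, and the closest to Cdk1 was Top2a, at rank 773. The closest to Ccnd1 was Cdk1, at rank 2975. Many genes that are no members were therefore closer to each of the 6 than most of the other members were. All values of a library come from the same RNA preparation, and the cause of the covariation was not tested.

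**Figure D4:**
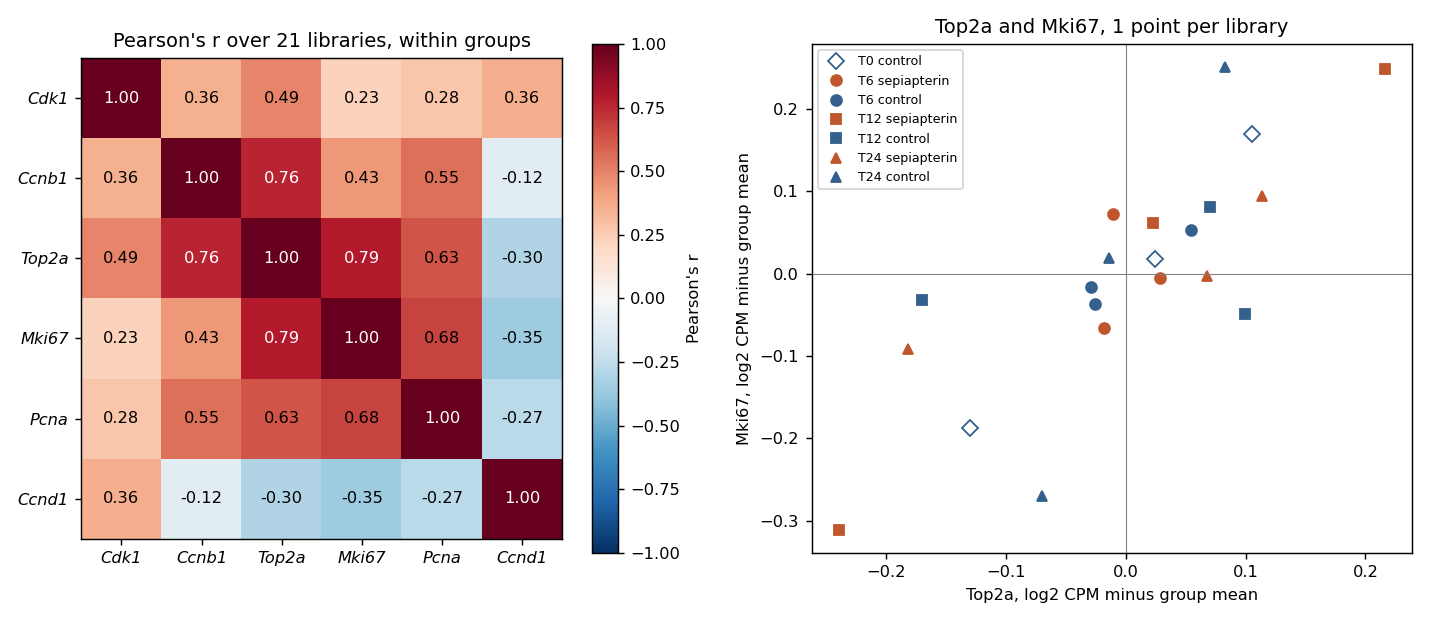
Pearson's r between the 6 genes over 21 libraries after the group mean was taken from log2 CPM (left), and the same values of Top2a and Mki67 with 1 point per library (right). The pair lies along a rising line (r = 0.79) with T12 sepiapterin replicate 3 at the low end, and Ccnd1 is near or below 0 with every gene except Cdk1.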

How the data were processed

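Polyadenylated RNA (500 ng of total RNA) was sequenced as stranded libraries, per the labels' protocols. The authors deposited raw counts of reads per gene for each of 23 libraries, made with cutadapt 1.8, STAR 2.5.2b and HTSeq 0.6.1 (build Rnor_6.0), as the submitters' processing notes list. Neither the annotation release nor the strand setting of the counting is given in the sources used here. Overlapping genes on opposite strands are therefore uncertain, and reads with several alignments (23.5 to 25.0%) were not counted. Reads outside any gene made up 14.8 to 17.1% and ambiguous reads 0.22 to 0.27%, and these lines were left out of library sizes.

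Differences were tested with edgeR 4.0.16 in R 4.3.3 (limma 3.58.1), by the quasi-likelihood test (robust fit), after TMM scaling and filterByExpr at a minimum count of 10. A fit of 21 libraries in 7 groups gave all contrasts except T24 against the T12 repeats, which came from 8 libraries. P-values were adjusted by Benjamini-Hochberg over all 14035 (or 13653) genes tested. Errors are standard errors of log2 fold changes, and DESeq2 1.42.0 was an alternative. Correlations used 100000 permutations within groups (Python 3.11.15, numpy 2.4.6, scipy 1.17.1) and were adjusted over 15 pairs. The edgeR test was tried on simulated counts for sepiapterin against control at T24 only.

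The members and lists were chosen with earlier results of these data known. All 6 members were tested in every comparison, called or not, though not every value is printed. No other gene or gene list was tested by name, because 0 of 47357 entries in the reference gene table carry an Ensembl identifier. Replicate numbers follow accession order and pair nothing. Nothing in the labels states that libraries of a group came from separate cultures, and the p-values therefore cover the spread between these libraries, which may be technical.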

Additional observations from a re-analysis of the deposited data

How the results depend on the processing

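No member was called for sepiapterin against control at any time, in the average or in the differences between times, under any of the 13 to 25 alternatives run for each. Over all genes the counts behind these contrasts moved widely: at T24 from 585 to between 11 (without T24 sepiapterin replicate 1) and 1463 (without T24 sepiapterin replicate 3), at T12 from 3 to between 0 and 309, in the average from 144 to between 33 and 752, and for T24 minus T6 from 0 to at most 372. By title the T12 sepiapterin difference rests on the naming of samples 10 and 11. By file header Mki67 at T12 was at 0.0988 (0.0393 with the paired libraries summed), and Top2a in the average was at 0.00779. The cause was not tested for any change of sign.

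For time in control aggregates, Pcna between T6 and T0 was at 0.0295 with library size only and at 0.00290 with no filter on low counts. Between T12 and T6, Ccnb1 was at -0.0177 (library size only), -0.00133 (no filter), -0.0564 (file header) and -0.0160 (paired libraries summed), and Mki67 at -0.00439 (library size only), -0.107 (file header) and -0.0457 (summed). With only the compared groups in the fit, 2 members were called in that step. Between T24 and T6, 1 member was called with library size only, 1 with no filter, 1 with library batch as a term by title and 0 with it by file header. The members called between T24 and the T12 repeats were 4 with no filter, 1 by file header and 4 with only the compared groups. In sepiapterin aggregates, Ccnd1 between T12 and T6 was at -0.00894 with library size only. Between T24 and T6, 2 members were called with only the compared groups, and Top2a was at -0.132 with batch as a term by file header. Genes called ran from 338 to 3765 for control T24 against T6, from 22 to 1434 for T24 against the T12 repeats, and from 77 to 1523 for control T12 against T6.

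Leaving out 1 library at a time gave these ranges where a sign or a count changed. For sepiapterin against control, Pcna ran from -0.0578 to 0.0279 and Ccnd1 from -0.0226 to 0.0431 at T6, Mki67 from -0.16 to 0.12 at T12, Top2a from -0.13 to 0.0146 and Mki67 from -0.0901 to 0.17 at T24, and Mki67 from -0.0255 to 0.0666 in the average. For T24 minus T6, Mki67 ran from -0.13 to 0.13 and Ccnd1 from -0.0181 to 0.0594. For control T6 against T0, 0 to 1 members were called, the 1 being Ccnd1 without T0 control replicate 1, and Cdk1 ran from -0.0357 to 0.11, Pcna from -0.0313 to 0.0131 and Ccnd1 from -0.24 to 0.34. For control T12 against T6, 0 to 1 members were called, with Ccnb1 from -0.0455 to 0.0858 and Mki67 from -0.0206 to 0.0450. For sepiapterin T12 against T6, Cdk1 ran from -0.0919 to 0.0191, Top2a from -0.22 to 0.00933, Mki67 from -0.18 to 0.0890 and Pcna from -0.13 to 0.00112. For control T24 against T0, 3 to 4 members were called, Pcna ran from -0.0602 to 0.00799 and Ccnd1 from -0.44 to 0.14. For control T24 against T6, 1 to 4 members were called and Pcna ran from -0.0484 to 0.0185. For sepiapterin T24 against T6, 0 to 1 members were called and Ccnb1 ran from -0.12 to 0.0524. For control T24 against the T12 repeats, 0 to 4 members were called, 0 without T12 control repeat replicate 1. The pairs of members past the correlation threshold were 1 to 2, and r with Ccnd1 ran from -0.0425 to 0.50 for Cdk1, from -0.30 to 0.0884 for Ccnb1, from -0.39 to 0.0266 for Top2a and from -0.39 to 0.10 for Pcna. No paired analysis was possible because the replicate numbers follow accession order and pair no samples. Counting error reached furthest for Ccnb1, at 4.31 to 5.75%, and was about as large for Cdk1, at 4.39 to 5.42%.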
